A study of Mus musculus with 16 samples.

Results

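Notch signals are made by cutting. After a ligand binds, a sheddase of the ADAM family trims the receptor outside the cell, the gamma-secretase complex cuts it inside the membrane, and the freed intracellular domain enters the nucleus. There it joins the DNA-binding protein RBP-J, which otherwise holds target genes silent with corepressors, and a Mastermind protein then docks on the pair and recruits histone acetyltransferases. The genes described here serve these steps: Adam10 and Adam17 encode sheddases, Psen2 and Ncstn encode the catalytic presenilin and the substrate-binding nicastrin of gamma-secretase, Rbpj encodes RBP-J, and Maml1, Maml2 and Maml3 encode the Mastermind coactivators. Members were taken by symbol as every probe set that the platform annotation assigns to one of these 8 genes. This gave 18 of the 45037 probe sets on the array, for 7 genes of the 18193 that have a probe set naming them alone, and Maml3 was not analysed here.

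Expression was measured on 16 Affymetrix mouse arrays of EB5 embryonic stem cells (ESC) and of mesodermal cells derived from them. EB5 NERT cells (12 arrays) carry NERT, the intracellular domain of Notch1 fused to a hormone-binding domain so that 4-hydroxytamoxifen (OHT) activates it, and EB5 control cells (4 arrays) carry the empty pCAG vector. NERT is an already cut receptor, so that the sheddase and secretase steps lie upstream of the induced protein. ESC were held for the treatment in serum-free medium favouring ectoderm (ESCe) or in medium with serum favouring mesoderm (ESCm), and mesodermal cells were grown on collagen IV for 4 d by the labels (4 to 5 d by the methods). OHT was given at 1 µM for 4 h, and cycloheximide (CHX), which blocks protein synthesis, at 50 µg/ml for the same 4 h. Of the 12 conditions, 8 had 1 array each: NERT cells in ESCe, NERT cells in ESCm, control cells in ESCm and control mesodermal cells, each without and with OHT. The other 4 conditions had 2 arrays each and were all NERT mesodermal cells: untreated, with OHT, with CHX, and with CHX and OHT. Nothing says that the 2 arrays of a condition came from separate cultures, so the p-values reflect the spread from array to array alone, possibly a technical one, at a precision limited by how few arrays there are. Each line may be a single clone, so that an effect of NERT and a difference between clones cannot be told apart. The mesodermal cells are a bulk population, in which fewer cells of a type and less RNA per cell cannot be told apart.

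Values are linear model-based expression intensities, and 46.2% to 48.7% of an array's values were 50 or more. Differences below are on the scale of log2 (intensity + 25), which understates changes of weakly expressed genes, and were tested with limma over all probe sets that reached a mean of 50 in at least 1 condition. A probe set is called when its p-value, adjusted over all probe sets by Benjamini-Hochberg, is under 0.05. Single arrays were taken to vary as the replicated conditions do. In the fit over all 16 arrays, both ESC media of the NERT line shared an OHT effect, and so did both control populations. Fitted differences against ESCm and between the lines therefore also draw on the OHT arrays of the unreplicated conditions. They can depart from the difference of the untreated arrays alone. Of the 18 probe sets, 12 from 6 genes reached that mean. The 6 others were 1450104_at and 1460083_at for Adam10, 1431542_at for Psen2, 1444532_at for Ncstn, 1441697_at for Maml1, and 1427926_at, the only probe set of Maml2, which read between 1.48 and 21.2 on the 16 arrays. The first 5 of these stayed between 1.44 and 51.0. Intensities of different probe sets are not comparable as levels, and no member was ranked against another.

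The populations were checked by markers. The summed intensity of 6 ESC markers (Pou5f1, Nanog, Sox2, Zfp42, Klf4, Esrrb) was 17257 to 18357 in the 6 ESC arrays, 13537 to 13718 in the 2 control mesodermal arrays and 8106 to 8570 in the 4 NERT mesodermal arrays without CHX. The 6 measured mesodermal markers (Mixl1, Eomes, Fgf8, Evx1, Aplnr, Kdr) summed to 317 to 393, to 1287 to 1332 and to 3839 to 4717 in the same order. Kdr, which encodes Flk1, did not separate the populations, with 130 to 234 in ESC and 106 to 277 in mesodermal cells without CHX, and Brachyury (T) was not analysed here. Nor did every ESC marker fall: Pou5f1 read 3303 and 3449 in control mesodermal cells, above its 2490.5 to 2954 in ESC, and Nanog overlapped (1980.5 and 1987, against 1909 to 2715). NERT mesodermal cells were thus farther from ESC in both marker sums than control mesodermal cells, and this goes along with each comparison of the lines below.

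Rbpj carried the clearest pattern, and its upstream sequence is shown because RBP-J binds a short core motif, TGGGAA, that its own promoter holds. The 250 bases before the transcription start at chr5:53590096-53590345, plus strand of GRCm38.p6 (RefSeq), follow, with the motif in capitals on either strand (TTCCCA is its reverse complement). The 250 bases before the Maml1 start, chr11:50292337-50292586 on the minus strand, are given below them because Maml1 was the other gene that was called higher with CHX both without and with OHT.

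Rbpj: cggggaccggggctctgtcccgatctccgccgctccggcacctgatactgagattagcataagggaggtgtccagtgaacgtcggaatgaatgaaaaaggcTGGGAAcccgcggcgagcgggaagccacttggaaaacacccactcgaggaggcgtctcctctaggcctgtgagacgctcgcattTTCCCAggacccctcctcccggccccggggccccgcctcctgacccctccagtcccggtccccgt

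Maml1: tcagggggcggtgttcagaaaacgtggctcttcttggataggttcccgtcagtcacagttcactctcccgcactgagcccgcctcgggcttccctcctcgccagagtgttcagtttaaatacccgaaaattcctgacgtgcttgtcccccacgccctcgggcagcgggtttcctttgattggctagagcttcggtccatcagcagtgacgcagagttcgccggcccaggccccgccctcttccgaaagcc

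The motif stands 149 bases and, on the other strand, 65 bases before the Rbpj start, and it is not in the Maml1 sequence. In RefSeq windows of 250 bases before and 50 after a start, it was found in 5 of the 11 windows of the 8 genes and in 25.6% of all 32851 windows, both strands searched. The 2 Rbpj windows overlap and share the site nearer the start. By gene, 4 of the 8 (Rbpj, Psen2, Maml2 and Maml3) had the motif, against 28.3% of 27025 genes. Adam10, Adam17, Ncstn and Maml1 had none in these windows. A match is a description of the letters and not of binding. Both printed starts lie inside the annotated genes, which span 53555779 to 53657445 on chromosome 5 (Rbpj) and 50255634 to 50293131 on chromosome 11 (Maml1), so that other transcripts start elsewhere.

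The effect of Notch1 activation on its own machinery was asked first. No member was called for OHT in any population, while early Notch targets rose in the same arrays. In NERT mesodermal cells 0 of 12 member probe sets were called, against 0.893% of all 23971 tested. The lowest p among the 12 was 0.0920 (adjusted p = 0.769, limma), and their 95% intervals lay between -0.69 and 0.67. With CHX present 0 of 12 were called, against 0.617%, with adjusted p of 0.943 or more and intervals between -0.64 and 0.71. In NERT ESC, over both media, 0 of 12 were called, against 0.538%, with intervals between -0.39 and 0.76. In control cells 0 of 12 were called, against 0% (0 of 25847 probe sets, with 308 at an unadjusted p under 0.05), and none of the 12 had an unadjusted p under 0.05 in any of these comparisons. The difference between the OHT responses with and without CHX was called for 0 of 12, against 0.025%. Of 10 receptors and early targets, 6 rose with OHT in NERT mesodermal cells: Hes5 from 24.2 to 1478, Nrarp from 621 to 5182, Hey1 from 95.7 to 536, Heyl, Dtx1 and Notch1, part of whose sequence is also in NERT. In control cells 0 of the 10 were called. Before OHT the lines already differed among these 10. In NERT against control mesodermal cells 2 were called higher and 1 lower, where 5.9% of all probe sets were called. Nrarp read 621 against 87.4 (log2 difference 2.54, SE 0.21) and Notch1 393 against 199 (0.91, SE 0.24). Dtx1 read 112 against 228 (-0.85, SE 0.16).

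**Figure D1:**
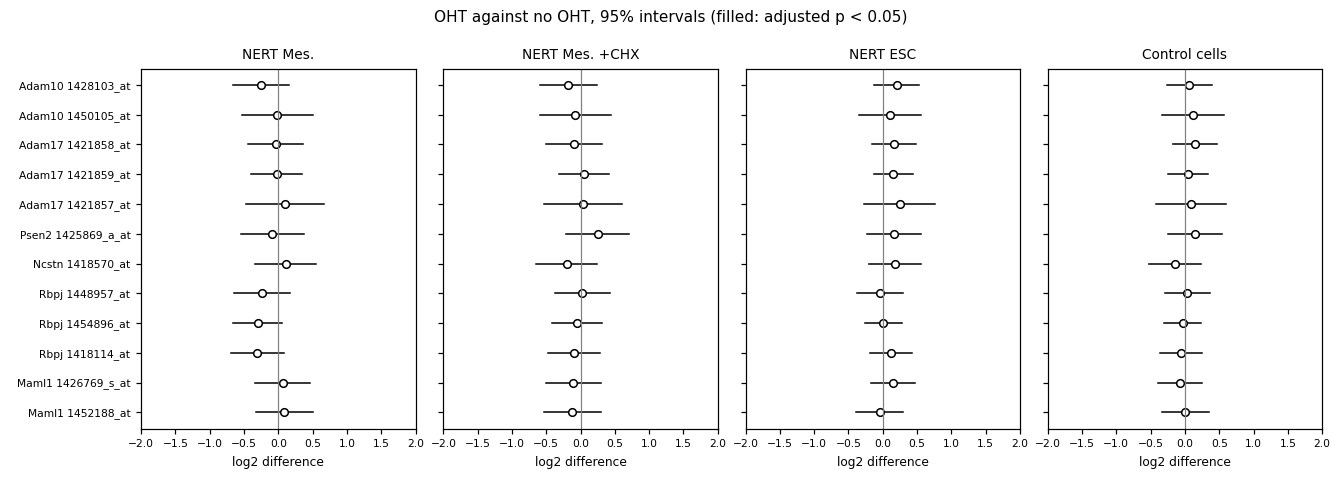
Log2 differences of OHT-treated against untreated arrays for the 12 measured probe sets, with 95% intervals from limma, in NERT mesodermal cells without and with CHX, in NERT ESC (both media) and in control cells (both populations). All 12 symbols are open in each panel, since none was called, and every interval spans 0.

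The lowest p-values for OHT in NERT mesodermal cells were those of Rbpj 1454896_at and 1418114_at. The lead probe set of Rbpj, 1448957_at, read 1293 and 1339.5 in untreated NERT mesodermal cells and 1139.9 and 1088 with OHT. Both OHT arrays were below both untreated ones, and the same held for 1454896_at, 1418114_at and Adam10 1428103_at, that is for 4 of 12 member probe sets, against 25.1% of all tested. The fitted Rbpj differences were -0.24, -0.30 and -0.31 (1448957_at, 1454896_at, 1418114_at) and were not called. With CHX, 1448957_at read 1976 and 2815 without OHT and 2245 and 2572 with it, and the groups overlapped.

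Rbpj was high in ESC. On 1448957_at the single arrays read 2666 without and 2476 with OHT for NERT ESCe, 2602 and 2662 for NERT ESCm, and 2674 and 2534 for control ESCm. Probe set 1454896_at ran from 1765 to 1932 over the same 6 arrays and 1418114_at from 405 to 477. The 6 values of each probe set lay close together whatever the line, the medium or OHT.

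Mesodermal cells of both lines had less Rbpj than ESC. In control mesodermal cells 1448957_at read 1607 without and 1787 with OHT, and in NERT mesodermal cells the 4 values without CHX were 1088 to 1339.5, so that each mesodermal array was below each ESC array. The same held for 1454896_at (793 and 831 in control, 500.3 to 650.5 in NERT cells) and for 1418114_at (197 and 199.9, 133 to 186). Such separation from ESC was not counted over all probe sets, so it describes the values alone. Against ESCm, the 3 probe sets fell by 1.00, 1.48 and 1.16 on the log2 scale in the NERT line (SE 0.17, 0.14 and 0.16, adjusted p = 0.000695, 7.28e-06 and 0.00013, limma), in the order 1448957_at, 1454896_at, 1418114_at. In the control line they fell by 0.61, 1.16 and 1.10 (SE 0.15, 0.13 and 0.14, adjusted p = 0.0137, 4.68e-05 and 0.000163, limma). The call of 1448957_at in the control line was lost when the 12 conditions were fitted as separate groups (adjusted p = 0.167, limma). The difference of the fall between the lines was not called for any of the 3 (adjusted p of 0.475 to 0.944, limma).

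With CHX the Rbpj signal of NERT mesodermal cells rose on all 3 probe sets, to values that overlapped those of ESC. Probe set 1454896_at read 650.5 and 636 in untreated cells, 1634 and 1932 with CHX, 500.3 and 535 with OHT, and 1639 and 1794 with CHX and OHT. All 4 CHX arrays were above all 4 arrays without it, and their range of 1634 to 1932 overlapped that of the 6 ESC arrays (this difference was not tested). The share of all probe sets for which CHX separated the arrays in this way was not counted. On 1418114_at the CHX arrays read 364, 447, 369.9 and 382, against 133 to 186 without CHX. Without OHT the mean of 1454896_at was 643 ± 10.6 (SD, n = 2) in untreated cells and 1783 ± 210.3 (SD, n = 2) with CHX, 2.77-fold, and the log2 differences of the 3 probe sets were 0.83, 1.43 and 1.11 (SE 0.18, 0.16 and 0.17, adjusted p = 0.00634, 0.00016 and 0.00103, limma). With OHT they were 1.09, 1.68 and 1.33 (adjusted p = 0.00101, 4.52e-05 and 0.000241, limma). The call of 1448957_at without OHT was lost when untreated replicate 1 was left out (adjusted p = 0.0529, limma), and the other 5 were kept in the 15 other settings run.

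CHX changed many genes and the marker sums with them. It called 32.8% of all probe sets without OHT and 40.5% with it, against 5 and 7 of the 12 member probe sets. The ESC marker sum was 9832 to 13552 in the 4 CHX arrays, against 8106 to 8570 in NERT mesodermal cells without CHX, and the mesodermal sum was 948 to 1253, against 3839 to 4717. Of the mesodermal markers Kdr did not fall (236 to 462, against 173 to 277), whereas the others were lower without overlap. The ESC markers did not move together, since Sox2 read 4268 to 6606 with CHX against 2645 to 3233 without it, and Pou5f1 571 to 1398 against 1814.5 to 2576. With CHX the sum of 3 stromal markers was higher without overlap (759 to 1119, against 281 to 396). So was that of 4 endoderm markers (346 to 552, against 103 to 281). Not every member followed: Col1a1, Sox17 and Gata4 were separate, whereas Col1a2, Gata6 and Foxa2 overlapped. Thy1 did not rise (15.9 to 29.1, against 21.7 to 30.0), and the 6 ESC arrays had a stromal sum of 357 to 778. The sum of 3 neuroectoderm markers (632 to 1340.5, against 207 to 860.5) overlapped, as did its member Nes (333 to 977, against 171 to 831). Sox1 (172 to 216, against 2.49 to 18.7) and Pax6 (127 to 166, against 17.2 to 36.9) were higher without overlap. The part of these shifts in the Rbpj difference was not tested.

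**Figure D2:**
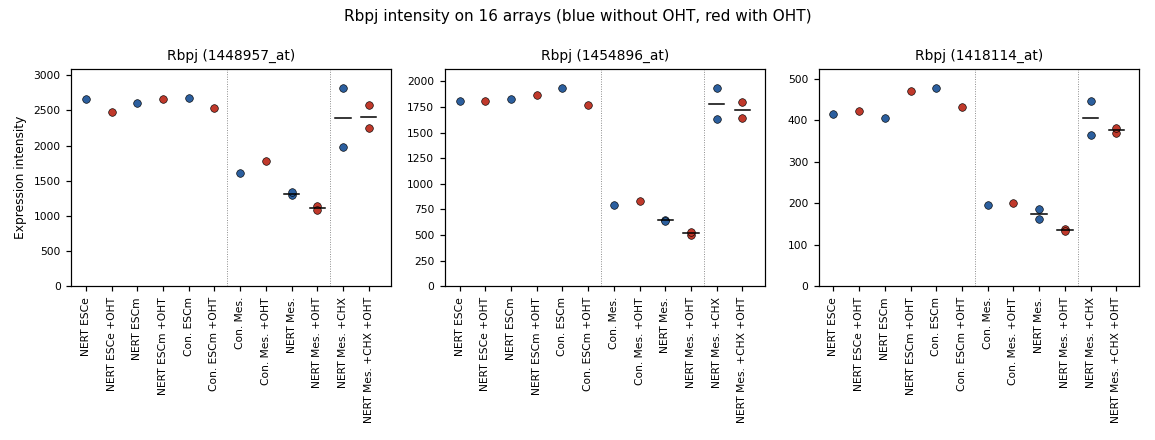
Intensity of the 3 Rbpj probe sets (one panel each, linear axis from 0) on all 16 arrays, by condition, blue without and red with OHT, with a bar at the mean where a condition has 2 arrays (ESCe and ESCm are the ESC media, Con. the control line, Mes. mesodermal cells). In each panel the 6 ESC arrays and the 4 CHX arrays lie high and the 6 mesodermal arrays without CHX lie low.

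The 3 Rbpj probe sets moved alike, with pairwise r of 0.975 to 0.992 over the 16 arrays. RefSeq lists 3 Rbpj pseudogenes (2 on chromosome 4 and 1 on chromosome 6), and whether the probes also bind transcripts of these was not tested. The genes whose lead probe sets were most like 1448957_at among 12762 compared, over the same 16 arrays, were Eed (r = 0.969), Nip7 (r = 0.968) and Ptcd3 (r = 0.967), where the lead probe set is the one with the highest mean. The arrays share cell populations, so that these r values are descriptions.

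Maml1 ran opposite to Rbpj between ESC and mesoderm and with it under CHX. Its lead probe set 1426769_s_at read 283 to 359 in the 6 ESC arrays, 471 without and 445 with OHT in control mesodermal cells, and 513, 566, 634 and 636 in the 4 NERT mesodermal arrays. All 6 mesodermal arrays were above all ESC arrays. The share of all probe sets separated in this way, or by CHX as follows, was not counted. With CHX 1426769_s_at read 1005 and 982 without OHT and 835 and 1019.7 with OHT, above every other array. Against ESCm it was higher by 0.81 (SE 0.16) in the NERT line and by 0.62 (SE 0.15) in the control line on the log2 scale (adjusted p = 0.00219 and 0.01, limma), the second of which was lost with the 12 conditions as groups (adjusted p = 0.252). CHX raised it from 574 ± 86.6 to 994 ± 15.8 (SD, n = 2 each), by 0.77 (SE 0.18, adjusted p = 0.00853, limma), and with OHT by 0.60 (SE 0.18, adjusted p = 0.022, limma). The first call was lost without CHX replicate 1 (adjusted p = 0.0575) or untreated replicate 2 (adjusted p = 0.102), and the other in 4 of 15 settings (highest adjusted p = 0.118, limma).

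The other measured Maml1 probe set, 1452188_at, did not rise with CHX. It read 190.5 and 196 in untreated NERT mesodermal cells and 178 and 201 with CHX, overlapping groups with a difference of -0.03 (95% interval -0.45 to 0.39, adjusted p = 0.919, limma). With OHT it read 197 and 218 without and 144 and 204 with CHX (difference -0.24, adjusted p = 0.335, limma). Between ESC (124 to 156) and mesodermal cells without CHX (171 to 218) it ran the same way as the lead probe set, with differences of 0.31 in the NERT and 0.39 in the control line that were not called. The CHX result for Maml1 therefore rests on 1426769_s_at, whose suffix marks a probe set that may match more than 1 transcript. Maml2 stayed below the mean required for a test.

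The catalytic and substrate-binding subunits of gamma-secretase were higher in NERT mesodermal cells than in ESC. Psen2 1425869_a_at read 47.5 to 70.5 in the 6 ESC arrays, 94.1 and 94.6 in control mesodermal cells, and 125, 128, 102 and 134 in NERT mesodermal cells (the last pair with OHT). The 3 sets of arrays did not overlap, and the share of all probe sets for which this held was not counted. Against ESCm the difference was 1.01 in the NERT line (SE 0.20, adjusted p = 0.002, limma) and 0.46 in the control line, which was not called (adjusted p = 0.0953). With CHX, Psen2 read 171 and 156 without OHT, a difference of 0.31 that was not called, and 161 and 245 with OHT, which was called (0.65, SE 0.21, adjusted p = 0.0278, limma) but lost in 3 of 15 settings. Without replicate 2 of the arrays with CHX and OHT the value was 0.39 (adjusted p = 0.166, limma).

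Ncstn 1418570_at read 166 to 221 in ESC, 263 and 278 in control mesodermal cells, and 329, 344, 344 and 384 in NERT mesodermal cells without CHX. Again the 3 sets did not overlap, and the share of all probe sets for which this held was not counted. Against ESCm the difference was 0.85 in the NERT line (SE 0.19, adjusted p = 0.00466, limma) and 0.44 in the control line (adjusted p = 0.093, not called). The CHX arrays read 300.4 and 386 without and 252 and 339.5 with OHT, which overlapped the arrays without CHX. The difference between the lines was not called for Psen2 (0.56, adjusted p = 0.377) or Ncstn (0.41, adjusted p = 0.519).

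Adam10, the sheddase used by ligand-bound Notch1, was the one member gene called between the lines. Its lead probe set 1428103_at read 268 to 369.8 in the 6 ESC arrays and 343 and 351 in control mesodermal cells, inside the ESC range. In NERT mesodermal cells it read 744 and 726 untreated and 522 and 718 with OHT, above all of these. Against ESCm the log2 difference was 1.38 in the NERT line (SE 0.17, adjusted p = 5.84e-05, limma) and 0.11 in the control line (SE 0.15, adjusted p = 0.685, limma), and NERT mesodermal cells exceeded control mesodermal cells by 1.06 (SE 0.17, adjusted p = 0.00352, limma). The difference between the lines, by a test added after the values were seen, was 1.27 (SE 0.23, adjusted p = 0.0175, limma). That call was lost without either untreated NERT mesodermal replicate (adjusted p = 0.0814 without replicate 1 and 0.0524 without replicate 2) and with the 12 conditions as groups (adjusted p = 0.439), where the difference of NERT from control mesodermal cells was lost too (adjusted p = 0.0618).

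Adam10 1450105_at gave the same order at lower intensities, with 46.4 to 65.4 in ESC, 55.5 and 57.4 in control mesodermal cells, and 102, 131, 81.8 and 157 in NERT mesodermal cells. Its difference against ESCm was 0.95 in the NERT line (adjusted p = 0.00722, limma), and that between the lines was 0.86 (95% interval 0.18 to 1.54), which was not called (adjusted p = 0.223). Ranges of control and NERT mesodermal arrays without CHX were separate also for the lead probe sets of Psen2, Ncstn, Rbpj and Maml1, none of which was called. How many of all probe sets had such separate ranges was not counted, so this describes the values alone. The part of the marker sums, which also separated the NERT from the control mesodermal arrays, in the Adam10 difference was not tested. With CHX, 1428103_at read 578 and 522 without and 494 and 469 with OHT, differences of -0.40 and -0.33 that were not called. On 1450105_at CHX with OHT gave a call (-0.66, adjusted p = 0.0441, limma) that was lost in 8 of 15 settings. Without replicate 2 of the OHT arrays it was -0.28 (adjusted p = 0.31, limma), and without replicate 1 it was -1.05.

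Adam17 encodes the other sheddase, also the one that releases tumour necrosis factor. Its lead probe set 1421858_at read 353 to 492 in ESC, 463 and 499.5 in control mesodermal cells, and 482 to 589.7 in NERT mesodermal cells without CHX. These ranges overlapped. The difference against ESCm was called in the NERT line (0.51, SE 0.17, adjusted p = 0.0294, limma) and lost in 3 of 14 settings, among them quantile normalization (adjusted p = 0.171). On 1421859_at and 1421857_at the same difference was 0.11 and 0.16 and was not called.

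With CHX the Adam17 signal was lower. Probe set 1421858_at read 366 and 375 with CHX and 311 and 383 with CHX and OHT, all below the 6 mesodermal arrays without CHX. Ranges were separate also on 1421859_at (155 to 172, against 208 to 261). On 1421857_at they overlapped (64.5 to 124.95, against 124.36 to 185.2). How many of all probe sets had such separate ranges was not counted. Without OHT the 3 probe sets differed by -0.50 (1421858_at), -0.50 (1421859_at) and -0.51 (1421857_at), of which 1421859_at was called (adjusted p = 0.0431, limma), and with OHT by -0.55, -0.42 and -0.57, of which 1421858_at was called (adjusted p = 0.033, limma). The 2 calls were lost in 5 and 7 of 15 settings.

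**Figure D3:**
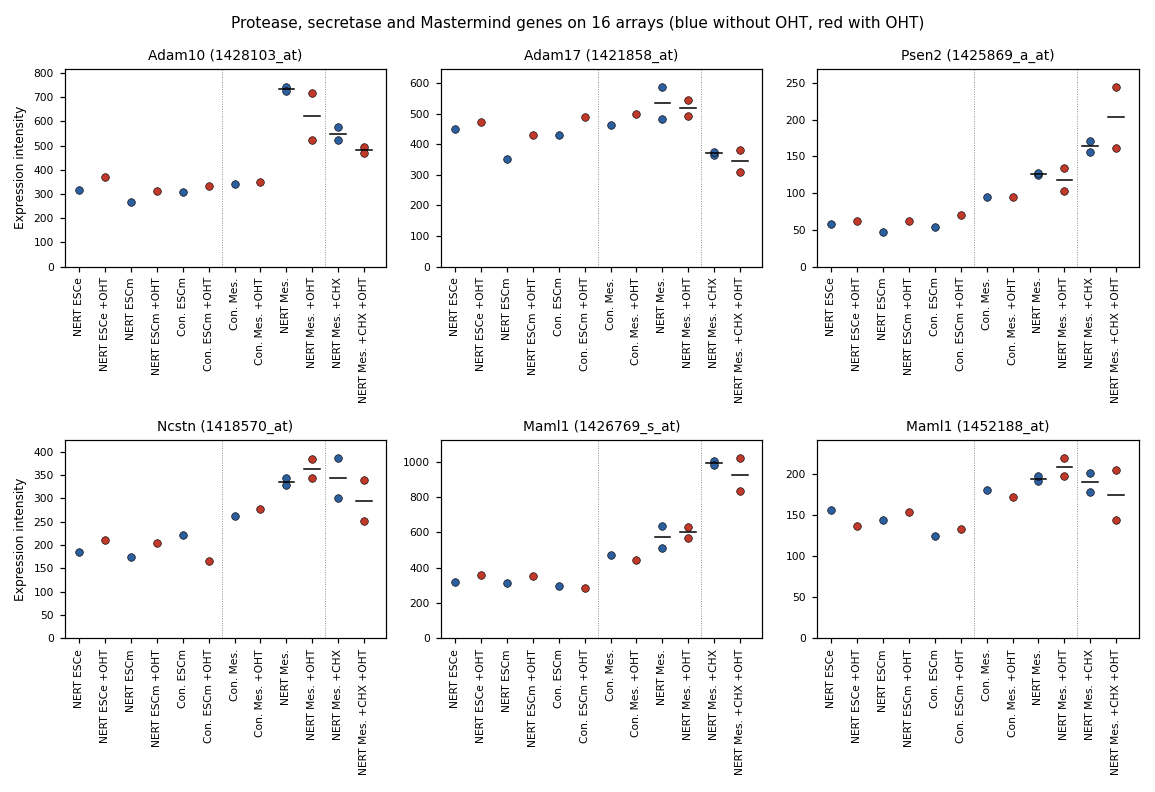
Intensity of the lead probe sets of Adam10, Adam17, Psen2, Ncstn and Maml1 and of a further Maml1 probe set on all 16 arrays (linear axes from 0, a panel each), by condition, blue without and red with OHT, with a bar at the mean where a condition has 2 arrays. Adam10 lies above the ESC and control mesodermal arrays in all NERT mesodermal arrays, those with CHX included, Psen2 and Ncstn step up from ESC to control to NERT mesodermal cells, and the 2 Maml1 probe sets part with CHX.

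Counted over the members, mesodermal cells against ESCm gave 9 calls among 12 in the NERT line (6 higher, 3 lower, the last all Rbpj), against 34.1% of all 25847 probe sets, and 4 among 12 in the control line (3 Rbpj lower, Maml1 1426769_s_at higher), against 20.9%. NERT against control mesodermal cells gave 1 call (Adam10), against 5.9%, and the difference between the lines 1 call (Adam10), against 1.37%. NERT against control ESCm gave 0 calls, against 0.255%, and ESCe against ESCm gave 0, against 0% (768 of all probe sets and 0 of 12 members at an unadjusted p under 0.05). The median difference over the 12 was 0.41 for NERT and 0.09 for control cells, beside 0.07 and 0.03 over all probe sets. The comparisons of NERT mesodermal cells with ESCm and with CHX share the untreated arrays.

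**Figure D4:**
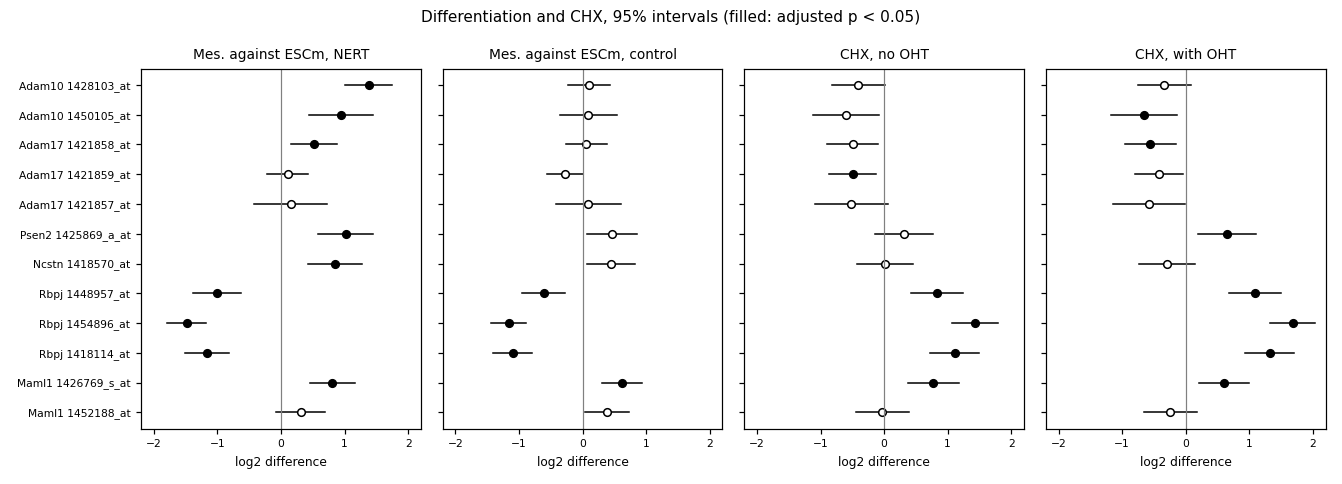
Log2 differences with 95% intervals from limma for the 12 measured probe sets: mesodermal cells against ESCm (NERT line, then control line), and CHX against no CHX in NERT mesodermal cells without and with OHT. Filled symbols were called (9, 4, 5 and 7 of 12), and the 3 Rbpj probe sets lie below 0 in the first pair of panels and above 0 in the other.

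Other genes of the same steps were read from 3 further lists, 1 probe set per gene. Of 13 measured genes for receptor processing and trafficking, 7 were higher and 1 lower in NERT mesodermal cells than in ESCm, where 34.1% of all probe sets were called. The list median was 0.48, beside 0.07 over all probe sets. Furin, the protease that cuts the Notch precursor in the Golgi, rose from 444 to 1037 (1.21, SE 0.15, adjusted p = 5.95e-05, limma). Pofut1, which adds O-fucose to Notch, rose from 119 to 269 (1.09, SE 0.21, adjusted p = 0.00136, limma). Neurl1a rose by 1.03 and Itch by 0.69 (adjusted p = 0.00177 and 0.00823, limma). Aph1a and Aph1b, the scaffold subunits of gamma-secretase, rose by 0.42 and 0.73 (adjusted p = 0.048 and 0.0214, limma). The ligand ubiquitin ligase Mib1 rose from 363 to 889.8, whereas Mib2 fell from 217 to 94.0. In the control line Furin, Pofut1 and Mib1 rose and Mib2 fell (3 higher, 1 lower, against 20.9% of all probe sets called). In NERT against control mesodermal cells Furin (0.93, SE 0.15) and Mib1 (0.70, SE 0.14) were called higher and none of the 13 lower. The share of all probe sets called there was 5.9%. OHT called none of the 13 in NERT mesodermal cells and, with CHX, Aph1b alone (84.1 to 211, adjusted p = 0.0464, limma).

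Of 10 nuclear coactivator genes, 3 rose and 1 fell with CHX without OHT, a share near the 32.8% of all probe sets called. These were the acetyltransferase Ep300 (1558 to 2361), Snw1, also called SKIP (1001 to 1871), and the remodelling factor Bptf (2292 to 3756), while the methyltransferase Kmt2d fell from 441 to 269. With OHT the same 4 passed, joined by the acetyltransferase Kat2b, where 40.5% of all probe sets were called. Against ESCm 1 rose (Med12) and 1 fell (Kat2b) in the NERT line, where 34.1% of all probe sets were called. Of 14 tested corepressor genes of RBP-J, 3 rose and 1 fell with CHX without OHT, no more than the background of 32.8%. Among them were Spen, which binds RBP-J directly (521 to 1065, adjusted p = 0.0028, limma), and Sin3a, which fell from 608 to 338. In NERT mesodermal cells against ESCm 5 rose and 1 fell, near the background of 34.1%, with Fhl1, whose KyoT2 form binds RBP-J, going from 436 to 3160 (2.76, SE 0.13, adjusted p = 7.28e-08, limma) and from 606 to 1785 in the control line (adjusted p = 3.24e-06). None of the 10 coactivators and 14 corepressors was called for OHT in NERT mesodermal cells, in NERT ESC or in control cells. Fhl1 (0.77, SE 0.13) and L3mbtl3 (0.71, SE 0.19) were called higher in NERT than in control mesodermal cells, and no coactivator was called. The share of all probe sets called there was 5.9%. The difference between the lines was called for Fhl1 (1.15, SE 0.18), where 1.37% of all probe sets were called.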

How the data were processed

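Model-based expression intensities on a linear scale, from 16 Affymetrix Mouse Genome 430 2.0 arrays, are what the authors deposited. They used dChip, with invariant-set normalization against 1 reference array (control mesoderm with OHT). These values were used unscaled and without detection calls. Groups were read from the sample labels. Of 45037 probe sets the platform annotation, which can be old, gives 1 gene for 34945, several for 932 and none for 9160. Positions and upstream sequences are from RefSeq (GRCm38.p6). Tests were run on log2 (intensity + 25) where any group mean reached 50, by limma 3.58.1 (lmFit, then eBayes with trend; R 4.3.3), with Benjamini-Hochberg adjustment and a threshold of 0.05. The 8 NERT mesodermal arrays (23971 probe sets, 4 residual degrees of freedom) gave the OHT and CHX comparisons, and all 16 arrays (25847 probe sets, 6 residual degrees of freedom) the others, with OHT effects shared over both ESC media and both control populations. Named genes were the members and called genes of the pathway lists. Members and lists were chosen with earlier results of these data known, and the test of the difference between lines was added after the values were seen. The scripts were tested on simulated data. Python 3.11.15, numpy 2.4.6, pandas 2.3.3 and matplotlib 3.10.9 made tables and figures.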

Additional observations from a re-analysis of the deposited data

Results flagged for a closer look

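The rise of Adam10 1428103_at from ESCm to mesodermal cells differed between the lines by a test of that difference itself, an interaction term (log2 difference 1.27, SE 0.23, 95% interval 0.78 to 1.77, adjusted p = 0.0175, limma). The test was added after the values were seen. The call was lost without untreated NERT mesodermal replicate 1 (adjusted p = 0.0814) or 2 (adjusted p = 0.0524) and with the 12 conditions as groups (adjusted p = 0.439), and 1450105_at was not called (0.86, adjusted p = 0.223, limma). The lines differed also in the marker sums, with the 6 ESC markers at 8106 to 8570 in NERT and 13537 to 13718 in control mesodermal cells, and the part of this in the Adam10 value was not tested.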

How the results depend on the processing

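Values of the called members kept their direction in every setting run, except that Maml1 read from 1452188_at in place of 1426769_s_at turned from higher to -0.030 with CHX without OHT and to -0.24 with CHX and OHT. Recomputed over all called member probe sets and settings, 350 values stayed past the threshold and 40 did not. OHT called 0 members with any replicate left out, and calls over all probe sets then ran from 63 to 287 (214 with all arrays), with CHX from 82 to 611 (148), for the difference of the responses from 3 to 48 (6), and in ESC from 117 to 235 (139). Leaving out replicates gave, for CHX without OHT, 3 to 6 members and 3890 to 9363 probe sets, for CHX with OHT 4 to 5 and 7185 to 9915, for mesoderm against ESCm 8 to 9 and 6253 to 10476 in the NERT line and 4 to 7 and 4939 to 7027 in the control line, for NERT against control mesodermal cells 1 to 2 and 466 to 2582, for NERT against control ESCm 59 to 102 probe sets, and for the difference between lines 0 to 1 and 117 to 871.

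With no filter OHT called 140 probe sets in NERT mesodermal cells, the difference with CHX 3 and the difference between lines 227. With a pseudocount of 100 the difference with CHX gave 19, and with a pseudocount of 5 NERT against control mesodermal cells gave 2 members. Quantile normalization gave 8 members for CHX without OHT, 3 for NERT against control mesodermal cells and 107 probe sets for NERT against control ESCm. It also changed the split of calls into higher and lower, to 4296 and 4238 (from 5059 and 2812) for CHX without OHT, to 5148 and 5172 (from 6342 and 3360) with OHT, to 4776 and 4766 (from 5917 and 2908) for mesoderm against ESCm in the NERT line, and to 929 and 618 (from 1142 and 384) for NERT against control mesodermal cells. With the 12 conditions as groups, which leaves fewer residual degrees of freedom, the calls were 11 for the difference with CHX, 76 for OHT in ESC, 5724 for mesoderm against ESCm in the NERT line, 1095 (2 members) in the control line, 332 (0 members) for NERT against control mesodermal cells, 5 for NERT against control ESCm and 15 (0 members) for the difference between lines. OHT called 26 probe sets in ESCe alone, 28 in ESCm alone, 1 in control ESCm and 2 in mesodermal control cells. By at least 2-fold and a difference over 50, as in the methods without detection calls, the counts were 336 and 236 for OHT without and with CHX, 3 in control cells, 3372 (2 members) and 4434 (3 members) for CHX without and with OHT, 3982 (5 members) and 1917 (2 members) for mesoderm in the NERT and control lines, 821 (2 members) for NERT against control mesodermal cells, 256 for NERT against control ESCm and 29 for ESCe against ESCm.

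The labels do not say what a replicate number stands for. Deviations of same-numbered arrays correlated at 0.00736 to 0.513 over the 6 pairs of conditions, at over 0.1 in 4 of them (0.513 for untreated against OHT), which leaves the pairing unsettled. With the replicate block OHT called 339 probe sets and 0 members, and the difference with CHX 19. Weak probe sets are limited by background, since no detection calls were used and 25 was added to each value.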

Other observations

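Likeness over the 16 arrays was also computed for the lead probe sets of the other members among 12762 genes, as a description over arrays that share cell populations. Maml1 was most like Usp47, which encodes a deubiquitinase (r = 0.991), Arcn1, a coat protein of the early secretory pathway (r = 0.988), and Csnk1g3 (r = 0.988). Among the members themselves Maml1 was most like Psen2 (r = 0.952). Psen2 was most like Chic2 (r = 0.975), Commd8 (r = 0.975) and Rgs19 (r = 0.972), and Ncstn most like Smpd1, which encodes acid sphingomyelinase (r = 0.961), Sec24b, a cargo adaptor of the COPII coat (r = 0.961), and Cmtr1 (r = 0.959). Adam10 was most like Bicc1, an RNA-binding protein (r = 0.962), Tcp11x2 (r = 0.955) and Pcbd2 (r = 0.955), and its 2 measured probe sets had r = 0.867 with each other. For Adam17 the leading values were lower, with Men1 (r = 0.933), Kif3a (r = 0.911) and Mettl27 (r = 0.908).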
